A study of Rattus norvegicus with 4 samples.

Results

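The cytosolic ribosomal proteins, the structural proteins of the ribosomes that translate nuclear mRNAs, were followed through the serum response of Rat1 fibroblasts. All probe sets were taken whose single gene symbol in the platform annotation is that of a protein of the large (Rpl) or small (Rps) ribosomal subunit, Rplp0, Rpsa or Rack1, whatever their values. This gave 60 of the 8799 probe sets of the array, for 41 of the 4736 genes named by a single symbol, of which 28 belong to the large and 13 to the small subunit. Of the 60, 11 probe sets (9 genes) carry identifiers of 5 series of expressed sequence tags (EST, the short single-pass cDNA reads from which part of the array was designed) and are given apart, because many probe sets of those series were dimmer on 1 of the 4 arrays. The other 49 probe sets (37 genes, 24 of the large and 13 of the small subunit) are the ones meant below unless the EST series are named.

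The 4 Affymetrix oligonucleotide arrays held total RNA of Rat1 cells, an immortalized rat fibroblast line, infected with an empty retrovirus (Rat1-control) or with one that produces Omomer (Rat1-Omomer), 1 array for each condition. Omomer is Omomyc, a mutant dimerization domain of Myc that competes for its partners, fused to a domain of the estrogen receptor that responds to tamoxifen. Both cell types were kept for 48 h in 0.1% serum and received 4-hydroxytamoxifen (4-OHT), so that the controls had the drug too, and RNA was taken at the moment 10% serum was given (0 min) and 90 min later. The cells were stably infected, and the sources used here do not say whether a line was a clone. A transfection label of Rat1-Omomer at 0 min and of Rat1-control at 90 min names the other construct, and the titles, sources and descriptions, which are unanimous, were followed. The labels place 4-OHT in the whole starvation period and the methods only in its last hours, so that the length of exposure is not settled.

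Values are average differences, the mean gap in intensity between matching and mismatching probes of a probe set, scaled by the authors to a common mean on every array. The trimmed means lay between 2503 and 2505. The 99th percentile of all probe sets was 45555 and 43813.7 for control and Omomer at 0 min, 54024.9 for control at 90 min and 70476.6 for Omomer at 90 min, so that the brightest signals of the last array were drawn out upwards. Values under 1048, 2 times the SD of the noise, were set to that floor. Of 14 fibroblast marker genes 13 were found, and 12 were above the floor on all 4 arrays, whereas all 4 epithelial markers found were below it on every array, with sums between -54 and 666. All 3 endothelial markers found were below it too. Of 2 leukocyte markers found 1 was below it on every array, and the other, Ptprc, lay around it with 1 probe set (1070, 1041, 1097 and 1040). Of 3 neural markers found 1, Snap25, was above it on all 4 arrays with 1 probe set (3226, 3787, 3253 and 6396) and below it with its others. With 1 array for each condition there is no error between cultures, and none of the differences below could be tested.

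Ribosomal proteins are made in equal amounts by many unlinked genes, and their mRNAs are among the most abundant of a growing cell. Vertebrate ribosomal protein mRNAs start with a C followed by a run of pyrimidines, the 5′ terminal oligopyrimidine (TOP) tract, through which growth signals and mTOR govern their translation more than their amount. Ribosome production is a textbook output of Myc, which binds with Max to the E-box CACGTG, and serum sets it going in resting fibroblasts.

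To show the start sites of some of the genes named below, the RefSeq promoters of the rat assembly GRCr8 were read. They matched 36 of the 41 genes. Each window below holds 15 bases before the annotated start and 15 from the start on, 5′ to 3′ on the strand of the gene. The longest run of C and T near the start that begins with a C is in capitals. Rplp0, Rpl27a, Rpl19 (with its probe set in the EST series) and Rpl31 are shown as genes with bright probe sets of higher value on the Omomer array at 90 min as deposited, and Rps10, Rps23 and Rps3a as genes whose probe sets were lower there. Under quantile normalization the log2 fold of Rpl31 at 90 min was 0.
Rplp0, chr12:46718376-46718405, minus strand: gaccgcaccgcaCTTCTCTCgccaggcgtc
Rpl27a, chr1:172974558-172974587, plus strand: cgagacttggtgggCTCCTCCCTCTTTCTT
Rpl19, chr10:83519049-83519078, plus strand: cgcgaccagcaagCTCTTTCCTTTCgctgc
Rpl31, chr9:49143096-49143125, plus strand: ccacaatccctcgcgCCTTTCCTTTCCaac
Rps10, chr20:5700730-5700759, minus strand: gccgcgcacgCCCCTTCCTTTCCagcctcc
Rps23, chr2:23814502-23814531, plus strand: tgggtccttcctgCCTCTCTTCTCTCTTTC
Rps3a, chr2:173827028-173827057, minus strand: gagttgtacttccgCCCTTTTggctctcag

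The annotated start was a C followed by at least 4 pyrimidines in 11 of the 36 promoters (30.6%), against 2.6% of all 33469 promoters. A run of at least 8 pyrimidines, counted from a C on, lay within 15 bases of the start in 18 of them (50%), against 8.4% of all promoters. Genes higher and genes lower on the Omomer array at 90 min both had such runs, as the windows of Rplp0 and Rps23 show. Both kinds also held genes without a run of 8, such as Rpl24, Rpl3 and Rps16 among the higher and Rack1 and Rpl39 among the lower. Rpl39 is nevertheless among the 11 whose start was a C followed by at least 4 pyrimidines. CACGTG, which reads the same on both strands, was present in the window from 250 bases before to 50 after the start of 2 of the 36 genes (5.6%), Rpl13a and Rpl14, against 6.4% of all promoters. In Rpl13a, shown as the gene with the motif and with probe sets both outside and in the EST series, it lay 218 bases before the start (capitals).
Rpl13a, chr1:104749114-104749143, minus strand: cgcctcgagaacCACGTGacctctcgcccc

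The ribosomal protein probe sets were near the top of the scale on every array. Of the 49, 42 had a mean of at least 20000 over the 4 arrays, and 47 were above the floor on each of them. The lowest, the median and the highest value were 1036, 42123 and 57960 in control cells at 0 min. In Omomer cells at 0 min they were 1037, 40393 and 56995. After 90 min of serum they were 1255, 49873 and 70418 in control cells, and 1872, 56927 and 109370 in Omomer cells. Both arrays at 0 min thus looked alike, the control array at 90 min lay somewhat higher, and the Omomer array at 90 min was both highest and most spread out. In whole cultures, fewer cells that make an mRNA and less of it in each cell cannot be told apart. The 2 probe sets under the floor on 1 array were those of Rpl17 and Rpl5, while the 7 with a mean under 20000 were these and those of Rpl19l4, Rpl30, Rps24 and a pair for Rpl21.

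**Figure D1:**
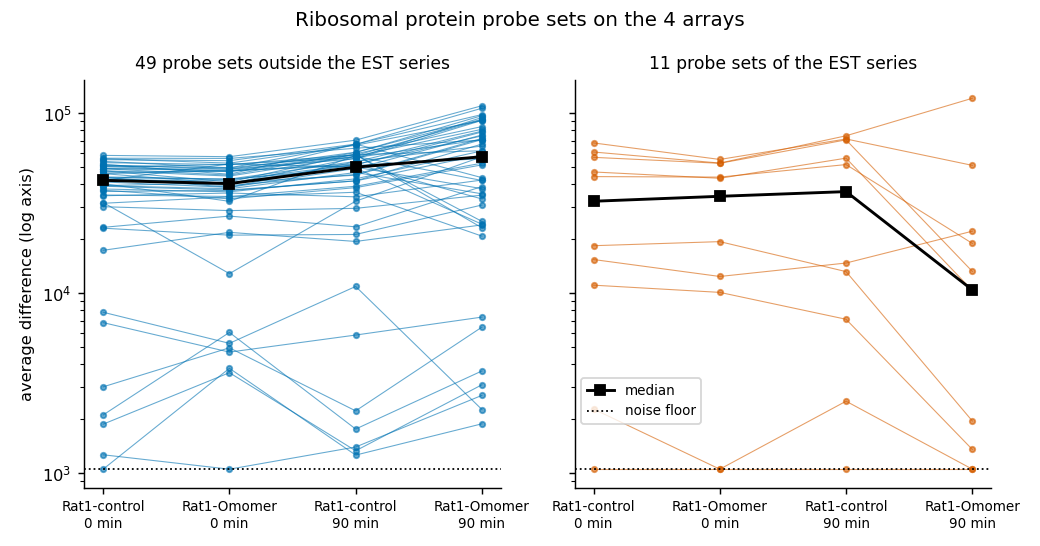
Average difference (linear scale as deposited, log axis) of each ribosomal protein probe set on the 4 arrays, outside and in the 5 EST series, 1 point per probe set with the median marked. The 49 outside the series have medians of 42123, 40393, 49873 and 56927, while the EST series has a median of 10375 on the Omomer array at 90 min.

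In control cells, which show the plain serum response, ribosomal protein mRNAs moved little and together. None of the 49 probe sets was 2-fold higher or lower at 90 min than at 0 min, where 5.98% of the probe sets outside the EST series were 2-fold higher and 6.68% lower (2.16% and 1.76% at 3-fold). Of the 49, 42 had a log2 fold above 0 (85.7%, against 46.6% of all probe sets outside the EST series). The median log2 fold was 0.19, with the central quartiles from 0.14 to 0.26 and the extremes at -0.49 and 0.52. Under quantile normalization, which gives all arrays the same distribution of values, this median was -0.03 and 20 of the 49 were above 0, so that its direction depended on the scaling. The other 260 bright probe sets outside the EST series, with a mean of at least 20000 and no ribosomal protein symbol, had a median of 0.18, so that the ribosomal proteins lay where bright probe sets lay in general. Of those 260, 68.8% were above 0. The range of the ribosomal proteins was narrower: the central quartiles of the other bright probe sets ran from -0.07 to 0.35, and 15 of those were 2-fold higher and 4 lower. Beyond the cut-off of 20000 the groups were not matched in level, and what made the range narrow was not tested.

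The largest control serum fold was that of Rplp0, the protein at the base of the ribosomal stalk to which the acidic stalk proteins bind. It measured 40408 at 0 min and 57909 at 90 min in control cells, a 1.43-fold higher value. Rps16 followed among the bright ones, with 51799 and 66840 (1.29-fold). Of the 7 that were lower, 4 had a mean under 20000. The pair for Rpl21, designed to the same EST, went from 3004 to 2209 and from 1864 to 1326, and Rpl30 from 2097 to 1751.

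In Omomer cells the serum folds were larger and more scattered. Of the 49 probe sets, 9 were 2-fold higher at 90 min than at 0 min (11.2% of all probe sets outside the EST series) and 3 were 2-fold lower (9.28%). At 3-fold, the threshold of the study, 1 was higher and none was lower, against 3.55% and 3.7% of all probe sets. Of the 49, 36 had a log2 fold above 0 (73.5%), against 83.5% of the other bright probe sets and 63.3% of all outside the EST series. The median log2 fold was 0.61, with the central quartiles from -0.08 to 0.92. Quantile normalization brought this median to 0.10, with 27 of 49 above 0, 2 probe sets 2-fold higher and 6 lower. The other bright probe sets had a median of 0.58, and all probe sets outside the EST series above the floor on the 4 arrays one of 0.29. The difference between the serum folds of both cell types had a median of 0.54 (0.14 under quantile normalization) and was positive for 36 of the 49, whereas that of the other bright probe sets was 0.40. The share with a positive difference was 73.5% of the 49, 74.2% of the other bright probe sets and 62.5% of all outside the EST series.

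**Figure D2:**
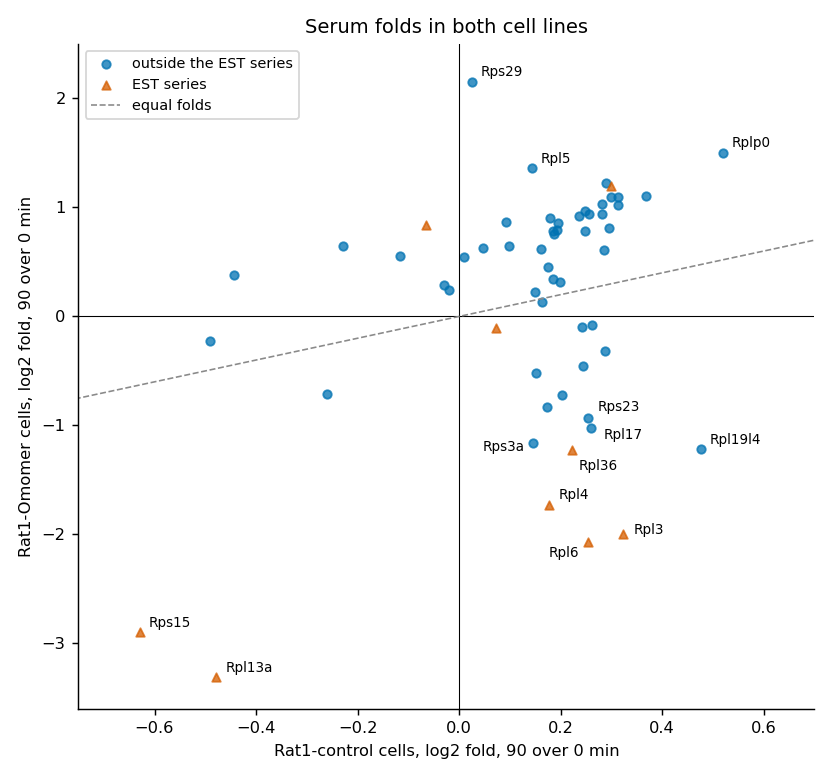
Log2 serum fold (90 min over 0 min) of each ribosomal protein probe set in control cells (x axis) and in Omomer cells (y axis), which share no array, outside and in the EST series. Points outside the series spread little along x, around a median of 0.19 that turns to -0.03 under quantile normalization, and widely along y, between -1.22 and 2.16.

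Next to a probe set of Rps29 described further on, Rplp0 had the highest serum fold in Omomer cells. It measured 32212 at 0 min and 91323 at 90 min, 2.84-fold higher. Rpl27a, of the large subunit, measured 49414 and 105905 (2.14-fold). Rps16, of the small subunit, measured 45525 and 97683 (2.15-fold). The values at 90 min were above both control arrays (40408 and 57909 for Rplp0, 53709 and 66740 for Rpl27a, 51799 and 66840 for Rps16). Rpl7a, with 41271 and 83794 (2.03-fold), the brighter probe set of Rpl23, with 40393 and 94125 (2.33-fold), and that of Rpl27, with 38556 and 79038 (2.05-fold), behaved in the same manner. Rpl5, which binds Mdm2 together with Rpl11, was close to the floor and went from 1037 to 2693, at least 2.57-fold higher.

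The 3-fold call was 1 of the 2 probe sets of Rps29, a small zinc-binding protein of the small subunit. It measured 31713 in control cells and 12779 in Omomer cells at 0 min, and 32268 and 56927 at 90 min, which is a 4.45-fold serum difference in Omomer cells. The other probe set of Rps29 gave 48864 and 45010 at 0 min, and 60115 and 96324 at 90 min, a 2.14-fold difference. The low value at 0 min was thus seen with 1 of both probe sets, and the 3-fold call was absent when the brightest probe set stood for each gene.

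At 90 min the direct comparison of Omomer with control cells gave a median log2 fold of 0.50, with 39 of the 49 probe sets higher and 10 lower in Omomer cells (0.16, with 33 higher and 15 lower, under quantile normalization). The share higher as deposited was 79.6%, against 77.7% of the other bright probe sets and 67.0% of all outside the EST series. Of the 49, 24 were within 1.5-fold, 18 were higher by 1.5-fold or more and 7 were lower by as much. The share of all probe sets at 1.5-fold was not counted. At 2-fold, 3 were higher (11.7% of all probe sets outside the EST series) and 4 were lower (8.46%). At 3-fold, none was higher (2.57% of all) and 1 was lower (3.3%). The other bright probe sets had a median of 0.38. The large subunit had a median of 0.52 (32 probe sets) and the small subunit one of 0.28 (17 probe sets), with central quartiles from 0.32 to 0.66 and from -0.44 to 0.66, so that both ranges overlapped and the small subunit reached lower. Under quantile normalization these medians were 0.18 and 0.06.

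**Figure D3:**
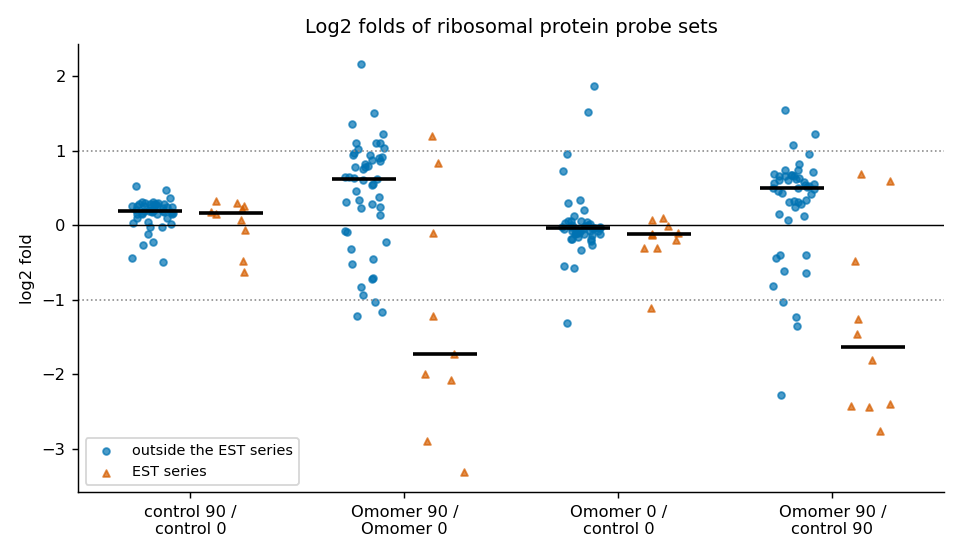
Log2 folds of the ribosomal protein probe sets after serum in control cells, after serum in Omomer cells, and of Omomer over control at 0 min and at 90 min. Probe sets outside and in the EST series stand side by side, with medians marked and lines at 2-fold. At 90 min, of the 49 outside the series, 39 lie above 0 (median 0.50, or 0.16 under quantile normalization). Rpl19l4, Rps3a, Rps23 and Rps10 lie beyond 2-fold below in that comparison.

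Among the 32 large subunit probe sets 28 had a higher value in Omomer cells at 90 min as deposited (24 under quantile normalization). The higher members included Rpl3, a protein near the peptidyl transferase centre, with 51240 and 48622 at 0 min (control, then Omomer) and 60362 and 91966 at 90 min, 1.52-fold higher in Omomer cells at 90 min. Both probe sets of Rpl24, which contacts the small subunit, were higher, by 1.43-fold and 1.55-fold, the brighter with 57960, 56995, 70418 and 109370 on the same 4 arrays, the highest value of any member outside the EST series. Rpl18 gave 36557, 36955, 41858 and 66973 (1.6-fold) and Rpl14 gave 23093, 26667, 23243 and 38902 (1.67-fold). Both probe sets of Rpl35, which lies near the exit of the peptide tunnel, were higher by 1.34-fold and 1.54-fold, and those of Rpl11, a partner of Rpl5, by 1.41-fold and 1.26-fold. Rpl31 was 1.37-fold, Rpl13a 1.4-fold and Rpl35a 1.24-fold higher. Rpl7a was 1.42-fold, Rpl27a 1.59-fold and Rpl41 1.24-fold higher, both probe sets of Rpl23 were 1.44-fold and 1.68-fold higher, and those of Rpl27 were higher too (21086 and 30722, 53365 and 79038 at 90 min). Differences were small for Rpl6 (50928 and 55585 at 90 min, 1.09-fold) and Rpl26 (58445 and 61518, 1.05-fold). The dim probe sets of Rpl17, Rpl5 and Rpl30 were 1.49-fold, 1.93-fold and 2.1-fold higher, Rpl30 being 2-fold higher together with the dim Rpl21 pair described next. For the bright members these directions held as deposited and not always under quantile normalization, where the log2 fold of Rpl3 was 0.12 and that of Rpl6 -0.15.

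Of the large subunit, 4 genes had a probe set with a lower value in Omomer cells at 90 min. Rpl22 measured 54880 and 54181 at 0 min and 66969 and 43600 at 90 min, 1.54-fold lower, and Rpl39, which lines the exit tunnel, measured 39368, 37814, 46573 and 35454, 1.31-fold lower. The probe set named Rpl19l4, a gene similar to Rpl19, measured 7797, 5239, 10846 and 2248, 4.82-fold lower, the only member past 3-fold in this comparison. Rpl19 itself had its probe set in the EST series, where it gave 60511, 52533, 74474 and 120303, 1.62-fold higher. For Rpl21 the probe sets differed in direction: 1 gave 31418, 34059, 36173 and 20643 (1.75-fold lower), another 37127, 33249, 38375 and 51330 (1.34-fold higher), and the dim pair to 1 EST was 2.92-fold and 2.33-fold higher (2209 and 6447, 1326 and 3084 at 90 min). The gene as a whole therefore had no single direction.

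In the small subunit the members parted more clearly. Rps3a measured 52819 and 51529 at 0 min and 58435 and 22969 at 90 min, 2.54-fold lower in Omomer cells. Rps23, a protein of the decoding centre, measured 48923, 47636, 58370 and 24927 (2.34-fold lower), and Rps10 measured 43676, 42719, 49273 and 24042 (2.05-fold lower). In each of these 3 genes the first 3 arrays lay close together and the last stood below all of them, and under quantile normalization the log2 folds at 90 min were -1.52, -1.39 and -1.16. Rps15 was 1.36-fold lower, with 47691, 44471, 57214 and 42067.

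Rack1, a scaffold protein on the head of the small subunit that also binds signalling kinases, measured 46725, 47502, 51887 and 33203 and was 1.56-fold lower (log2 fold -0.81 under quantile normalization). Rpsa, the laminin receptor that is also a small subunit protein, was in contrast higher with both its probe sets. They measured 39368, 40883, 44999 and 70920, and 42993, 40700, 51352 and 78155 (1.58-fold and 1.52-fold). Rps6, the substrate of the S6 kinases, had 42645, 39381, 45453 and 71955 with 1 probe set and 48972, 48594, 55477 and 90679 with the other, and was 1.58-fold and 1.63-fold higher. Between both cell types at 90 min, Rplp0 was higher by a like factor (57909 and 91323, 1.58-fold).

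Rps3, a protein at the entry of the mRNA channel, was measured with a pair of probe sets to the same sequence that differed in direction as deposited. The first gave 42123, 51933, 49873 and 37865 (1.32-fold lower) and the second 44026, 42797, 53638 and 65307 (1.22-fold higher). Under quantile normalization both were lower, with log2 folds of -0.51 and -0.08. Rps16 was 1.46-fold higher, and the probe sets of Rps29 were 1.76-fold and 1.6-fold higher. Rps9 was 1.11-fold higher (log2 fold -0.25 under quantile normalization), Rps24 1.26-fold higher at a low level (5825 and 7328), and the probe set named Rps27l, a paralog of Rps27, 1.18-fold higher (29445 and 34868).

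Before serum both cell types differed little. Between Omomer and control cells at 0 min the median log2 fold was -0.04 (0.01 under quantile normalization, a change of sign), and 2 of the 49 probe sets were 2-fold higher and 1 was lower, against 1.64% and 2.04% of all probe sets outside the EST series. Both higher ones were dim. Rpl17, at the exit of the peptide tunnel, measured 1036, below the floor, and 3807, at least 3.63-fold higher (0.334% of all were 3-fold higher and 0.601% lower), and 1255 and 1872 at 90 min. Rpl30 measured 2097 and 6023 at 0 min, 2.87-fold higher, and 1751 and 3680 at 90 min. The lower one was the Rps29 probe set described above, 2.48-fold lower, while its second probe set was 1.09-fold lower.

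With control cells at 0 min as the reference, the one the study used, Omomer cells at 90 min had a median log2 fold of 0.70 (0.13 under quantile normalization). Of the 49, 4 were 2-fold higher (12.2% of all) and 2 were lower (9.98%), and 1 was 3-fold lower (4.36%) and none 3-fold higher (3.38%). The higher ones were Rplp0 (2.26-fold), the brighter Rpl23 probe set (2.05-fold), Rpl5 (2.14-fold) and a dim Rpl21 probe set (2.15-fold). The lower ones were Rpl19l4 (3.47-fold) and Rps3a (2.30-fold).

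In place of replicate arrays, the 10 genes with at least 2 probe sets outside the EST series (22 probe sets) were compared within themselves. Such probe sets share the RNA and the array, and in all of these genes but Rpl21 and Rps29 they are only a pair to the same sequence. They are thus no replicates of a condition, and their agreement is mostly not that of separate target sequences. The SD of the log2 fold between probe sets of a gene was 0.20 for the control serum fold, 0.46 for the Omomer serum fold, 0.37 between both cell types at 0 min and 0.55 at 90 min. Much of the last value came from Rpl21, and without this gene the 4 SDs were 0.12, 0.40, 0.30 and 0.19. All probe sets of a gene had the same sign in 8 of the 10 genes for the comparison at 90 min and in 5 of 10 at 0 min. Of the genes with different target sequences, Rps29 had the same sign in both comparisons and Rpl21 in neither.

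The 11 probe sets of the EST series gave another picture. At 0 min and in control cells at 90 min their medians were 32240, 34345 (Omomer) and 36471, and on the Omomer array at 90 min 10375. In control cells none of the 10 with a fold was 2-fold higher or lower after serum (3.79% and 8.9% of all in these series, and 1.23% and 1.94% at 3-fold). In Omomer cells 1 of 9 was 2-fold higher (2.59%) and 6 were lower (45.1%), 5 of them beyond 3-fold (29.6%) and none 3-fold higher (0.725%), with a median of -1.73 (-1.90 under quantile normalization). Against control cells at 90 min none of 10 was higher (4.6%) and 7 were lower (41.1%), 5 of them beyond 3-fold (27.2%, against 1.01% of all 3-fold higher), with a median of -1.63 (-1.64). All probe sets of these series had a median of -0.69 in that comparison. The 34 other bright ones had a median of -0.43, with 14 being 2-fold lower and none higher. Low values there were thus not limited to the ribosomal proteins, whose median was lower than both.

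At 0 min 1 of 10 was 2-fold lower (0.711% of all) and none higher (0.711%), and against control cells at 0 min 7 of 10 were lower at 90 min in Omomer cells (45.8%) and none higher (3.01%), 5 of the 7 beyond 3-fold (28.9%, against 0.831% of all 3-fold higher).

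The same gene could be read in both places for 5 genes. The probe set of Rpl3 in the EST series measured 56526 and 52386 at 0 min, 70698 in control and 13144 in Omomer cells at 90 min, 5.38-fold lower, where the other Rpl3 probe set was 1.52-fold higher (60362 and 91966). Rpl6 gave 46884, 43245, 55943 and 10295 in the EST series, 5.43-fold lower, against 1.09-fold higher outside. Rpl13a gave 18261, 19238, 13111 and 1941, 6.75-fold lower, against 1.4-fold higher. The direction at 90 min was thus opposite for these 3 genes as deposited (under quantile normalization Rpl6 was lower outside too, -0.15). For Rpl3 and Rpl6 the first 3 arrays were alike in both places, whereas Rpl13a was 1.39-fold lower after serum in control cells in the EST series and 1.07-fold higher outside as deposited (log2 folds -0.61 and -0.13 under quantile normalization).

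Rps15 had a pair of probe sets to the same EST, and these went apart from each other. The first measured 11023, 10053, 7128 and 1349, 5.28-fold lower, and the second 15302, 12321, 14632 and 21982, 1.5-fold higher, whereas the probe set outside was 1.36-fold lower. Rpl26 gave 67965, 55024, 71500 and 51023, 1.4-fold lower, against 1.05-fold higher outside. The 4 genes measured only in the EST series included Rpl4, with a loop in the exit tunnel, at 32240, 34345, 36471 and 10375 (3.52-fold lower), and Rpl36, at 44185, 43911, 51538 and 18812 (2.74-fold lower). Rpl3l, the paralog of Rpl3 of striated muscle, was below the floor on all arrays with 1 probe set and at 2261, 748, 2500 and 133 with the other, at least 2.39-fold lower at 90 min. Rpl19 was the exception, with its 120303 on the last array. What sets these series apart on that array was not tested.

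**Figure D4:**
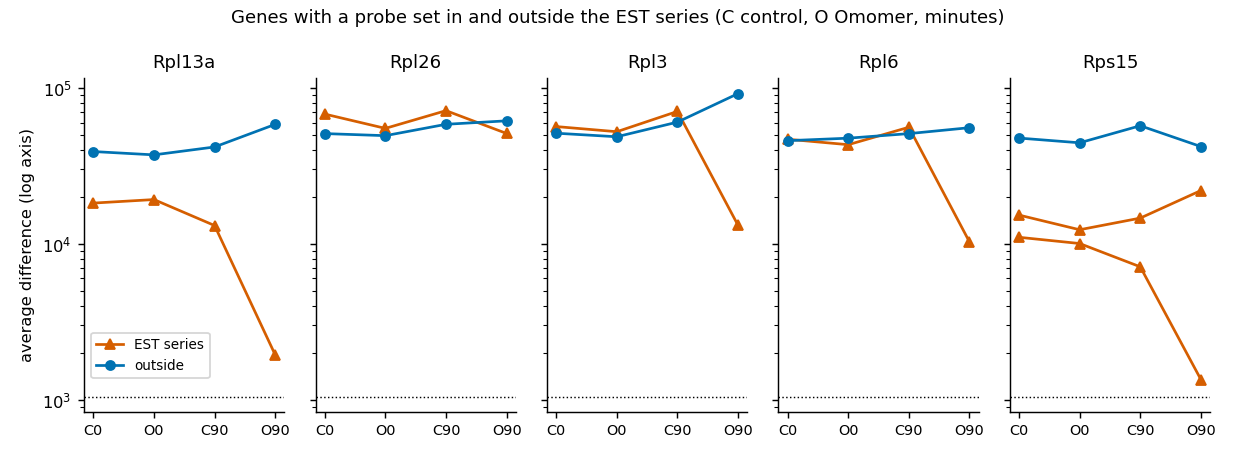
Average difference (log axis) on the 4 arrays of the 5 genes with probe sets both outside and in the EST series. For Rpl3 and Rpl6 both kinds of probe set run alike over the first 3 arrays and part at Omomer 90 min, while those of Rpl13a also differ in direction in control cells as deposited. Rpl3 measures 91966 outside and 13144 in the series on the last array.

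A further 38 probe sets outside the EST series carry several symbols with a ribosomal protein gene among them, and no single gene can be named from these. With 37 measurable folds, their medians were 0.25 for the control serum fold, 0.64 for the Omomer serum fold, -0.05 at 0 min and 0.49 at 90 min. For Omomer serum 9 were 2-fold higher (11.2% of all outside the EST series) and 4 lower (9.28%), and at 90 min 1 was higher (11.7%) and 4 lower (8.46%). These values lie close to those of the 49 in each comparison.

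The scaling of the arrays bears on all of these medians. When the arrays were scaled to the same median, the ribosomal protein medians were 0.28 for the control serum fold, 0.70 for the Omomer serum fold, -0.06 at 0 min and 0.49 at 90 min. Under quantile normalization they were -0.03, 0.10, 0.01 and 0.16, and those of the other bright probe sets -0.02, 0.07, 0.02 and 0.15. In both groups the median in Omomer cells was thus smaller when the drawn-out upper end of the last array was brought to that of the others. The part of the array's distribution in the higher values of the ribosomal proteins cannot be told apart from that of the cells with 1 array.

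**Figure D5:**
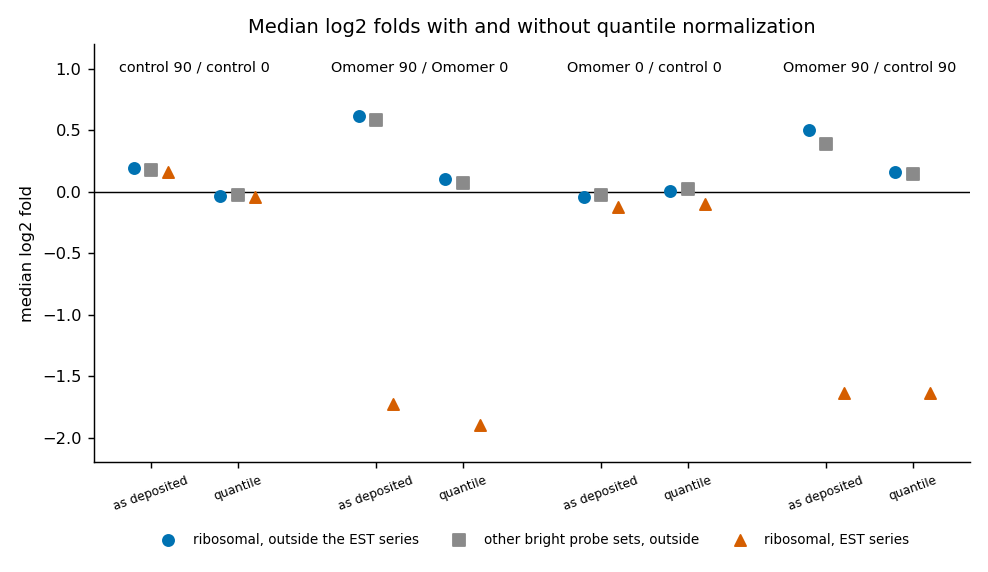
Median log2 fold as deposited and under quantile normalization of the ribosomal protein probe sets outside the EST series, other bright probe sets outside it, and ribosomal protein probe sets in it. The groups outside the EST series move together. Their ribosomal protein medians of the control serum fold and at 0 min change sign under quantile normalization (0.19 to -0.03 and -0.04 to 0.01). The EST series median at 90 min between cell types is -1.63 as deposited and -1.64 under quantile normalization.

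Other genes of ribosome production and translation were read beside them. Of 21 other genes with TOP mRNAs 7 were found, and their 11 probe sets outside the EST series had a median log2 fold of 0.56 at 90 min between both cell types, 2 being 2-fold higher (11.7% of all) and 1 lower (8.46%), and of 0.11 for the control serum fold (0.26 and -0.10 under quantile normalization, a change of sign in the latter). Eef1a1, the elongation factor that brings aminoacyl-tRNA, was 1.56-fold higher in Omomer cells at 90 min with its brighter probe set, and Eef2, the translocation factor, 1.47-fold and 1.23-fold higher. Naca, of the complex that meets nascent chains, was 1.83-fold lower, and the probe sets of Hnrnpa1, an RNA-binding protein, were 3.57-fold lower and 2.01-fold higher. Of 27 listed nucleolar assembly genes, which build ribosomes but are no part of them, only 10 were found. The few that could be read differed from the genes above. Of their 6 probe sets with a fold outside the EST series, 3 were 2-fold higher after serum in control cells (5.98% of all) and none lower, with a median of 0.81, and at 90 min none was higher and 3 were 2-fold lower in Omomer cells (8.46% of all), with a median of -0.94 (0.80 and -0.86 under quantile normalization, with 2 being 2-fold lower at 90 min). The 3 lower ones were under the floor in Omomer cells at 90 min, so that their folds are bounds. In the EST series the 7 nucleolar probe sets with a fold had a median of 0.39 after serum in control cells. None was 2-fold higher (3.79% of all in these series) or lower (8.9%). At 90 min their median was -1.37, with 1 being 2-fold higher (4.6%) and 4 lower (41.1%).

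Nop58, a core protein of the box C/D small nucleolar particles, was 2.58-fold higher after serum in control cells and 1.90-fold higher in Omomer cells. At 90 min it measured 9863 in control and 10044 in Omomer cells, 1.02-fold higher in the latter. Nolc1 was close to the floor, with 1231 and 1675 at 0 min, and 2590 and 552 at 90 min, 2.1-fold higher after serum in control cells and at least 1.6-fold lower in Omomer cells. Polr1b, a subunit of RNA polymerase I, lay around the floor with 974 and 1236, and 2116 and 1045, at least 2.02-fold higher in control cells and at least 1.18-fold lower in Omomer cells. The brighter probe set of Ncl, nucleolin, measured 13671 and 15427 at 0 min, and 20763 and 11385 at 90 min, 1.82-fold lower in Omomer cells. Its dimmer probe set measured 2120 and 836 at 90 min, the latter under the floor. Ubtf, of the same list, measured 2024 and 2234 at 90 min, 1.1-fold higher in Omomer cells. The mitochondrial ribosome, which has its own proteins, had 3 measurable probe sets outside the EST series with a median of 0.09 at 90 min.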

How the data were processed

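Total RNA of 4 conditions, 1 array each, was hybridized by the authors, who deposited average differences of MAS 4, a linear intensity with negative values kept. The SD of the noise, estimated from the negative values, was 524, and the floor was 1048. No test or SD between cultures could be had, and precision is limited by the number of arrays. Samples were grouped by titles. The 59 AFFX control probe sets were left out, and 8740 were used (6996 outside the EST series, 1744 in it). Of these, 7006 had 1 gene symbol in the platform annotation, 308 several and 1426 none, and the symbols may be old. Folds are ratios of floored values. With 1 of the values below the floor a fold is only a bound, and with both below it none was taken. The calls were 2-fold, added because bright signals move less, and 3-fold, as in the study, whose own robust fold rule was not used. Members and lists were chosen with earlier results of these data known. Members named were the 3 highest and 3 lowest of each comparison, those 2-fold apart, genes with several probe sets, the stalk proteins, Rpsa, Rack1, genes of the study's lists and, in the EST series, extremes and genes also outside it, 43 of 60; the remaining ones given were added after their values were seen. Alternatives were a floor lower or higher by a factor of 2, median scaling, quantile normalization, a filter on low values, 1 probe set per gene and the EST series included. The bright level of 20000, and leaving out dimmer members or adding those with several symbols, were chosen after seeing the data, as was leaving out Rpl21 from the spread between probe sets. The scripts were tested on simulated data, with Python 3.11.15, numpy 2.4.6, pandas 2.3.3 and matplotlib 3.10.9.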

Additional observations from a re-analysis of the deposited data

Results flagged for a closer look

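Of the 58 members with a serum fold in both cell types, 9 had serum folds of opposite sign in both cell types that differed by a log2 value of at least 1, and the difference was not tested. The share of all probe sets under this rule was not counted. Whatever the signs, a difference of -1 or lower was seen in 5 of 49 outside the EST series, against 296 of all 2853. A difference of 1 or higher was seen in 2 and 395. In the EST series -1 or lower was seen in 6 of 9, against 378 of all 913, and 1 or higher in 0 and 50. Outside the EST series these were Rpl19l4 (Omomer minus control serum fold -1.7), Rps3a (-1.31), Rpl17 (-1.28, from a control value under the floor), Rps23 (-1.19) and Rps10 (-1). In the EST series they were Rpl4 (-1.9), Rpl36 (-1.45), Rpl6 (-2.33) and Rpl3 (-2.32). The probe sets of Rpl6 and Rpl3 outside it were higher after serum in both cell types as deposited (under quantile normalization, Rpl6 was not). Under quantile normalization the control serum log2 folds of Rps3a (-0.12) and Rps10 (-0.08) were below 0 too, and their differences were -1.54 and -1.20.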

How the results depend on the processing

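No paired analysis was possible because each condition has 1 array. Quantile normalization turned the median log2 fold of the control serum comparison from 0.19 to -0.03 and that at 0 min from -0.04 to 0.01, and moved that of the Omomer serum comparison to 0.10 and that of Rat1-Omomer at 90 min over Rat1-control at 0 min to 0.13, with 2 probe sets past 3-fold in each of the latter. With the EST series included, 2-fold calls were 19 for Omomer serum, 14 between cell types at 90 min and 13 against the common reference (12, 7 and 6 without it), and 3-fold calls 6 in each (1 in each). With members of several symbols added they were 25, 12 and 14 at 2-fold, and 3, 4 and 4 at 3-fold. With members of mean at least 20000 only (42), 2-fold calls were 1 at 0 min and 3 each at 90 min between cell types and against the common reference, and 3-fold calls 0 in these comparisons. Of the 260 other bright probe sets 8, 36 and 57 were 2-fold apart there, and 2, 13 and 22 were 3-fold apart. The 3-fold call of Rpl17 at 0 min was lost (0) at double floor and with members above the floor on all arrays only, since both leave it no bound past 3-fold. The 3-fold count of Omomer serum was 0 with 1 probe set per gene and 2 under median scaling. In all, 116 of the summary values stayed within 1.5-fold or within the spread between probe sets, 26 moved and 2 reversed. The median at 90 min between cell types (0.50) was 0.16 and that of the difference of serum folds (0.54) was 0.14 under quantile normalization, counted as within a spread that Rpl21 widened. Of the folds of named probe sets 764 stayed and 90 moved, 81 of them under quantile normalization and 9 at double floor. Over all members, 61 of 294 folds changed sign under quantile normalization, none of them 2-fold. The cause of each change was not tested. Rpl17, Rpl5, Rpl30 and the dim Rpl21 pair had signals near the floor, which limits their folds.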
